A study of Mus musculus with 6 samples.

Results

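The globin genes encode the protein chains of hemoglobin, the oxygen carrier of red cells, and were followed here in mouse bone marrow from which cells carrying mature lineage markers had been removed with magnetic beads. The members are 8 genes chosen by symbol, set against the 33924 gene rows of the deposited count table, and 7 of them were analysed: the adult alpha genes Hba-a1 and Hba-a2, the adult beta genes Hbb-b1 and Hbb-b2, and the embryonic genes Hba-x, Hbb-bh1 and Hbb-y. The eighth is not analysed here. RNA had been sequenced from 3 samples labelled Stag2KO and 3 labelled Stag2WT, in a study of the cohesin subunits Stag1 and Stag2 in blood stem cells. The labels give genotype and lineage depletion, but no strain, age, deleting agent or animal. Each sample title also holds a code that the labels do not explain. Each p-value therefore sets a difference only against the spread of these samples, which may be technical. Below, KO1 to KO3 and WT1 to WT3 name the libraries in the order in which values are given.

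Hemoglobin is built from a pair of alpha-type and a pair of beta-type chains, each holding heme. In GRCm38 the alpha-type members lie together on chromosome 11, from Hba-x (chr11:32276400-32278116) to Hba-a2 (chr11:32296489-32297298), and the beta-type genes on chromosome 7, with Hbb-y at chr7:103851749-103853216. In each cluster a distant enhancer array drives embryonic genes in yolk-sac erythroid cells and adult genes in fetal liver and marrow. Adult globin RNA builds up late in erythroid maturation, whereas the bead depletion is meant to leave stem and progenitor cells.

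Libraries held 29435651 to 37722325 reads in genes. Stag2, the targeted cohesin gene, had 169, 187 and 183 CPM in Stag2KO, against 338, 329 and 324 CPM in Stag2WT. Its fitted fold was 0.544 (95% interval 0.492 to 0.601, adjusted p = 0.000278 by edgeR). CPM is a gene's reads relative to the library's gene reads after TMM scaling. Counts are per gene, so a transcript lacking some exons could still add to the Stag2KO values, which was not tested. The progenitor gene Cd34 was detected in both groups and averaged 204 ± 23.7 CPM in Stag2KO and 141.5 ± 21.1 CPM in Stag2WT (SD, n = 3 each). Slc4a1, the anion exchanger gene of the red cell membrane, picked after its values were seen, was also detected, with 132.0, 122.4 and 92.8 CPM in Stag2KO and 175.8, 286.6 and 143.5 CPM in Stag2WT (not called, adjusted p = 0.116 by edgeR).

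How far a globin gene can be counted depends on how much of its sequence is its own. Reads that align to more than 1 place were kept in a separate row of the table and not given to any gene. They made up 26.7%, 23.4% and 24.9% of the table total in Stag2KO and 28.6%, 27.6% and 25.5% in Stag2WT. The coding sequences of Hba-a1 and Hba-a2 are 429 bases long in the GENCODE M21 transcripts (build GRCm38) and differ at a single base, C381T, counted from the A of the start codon with the Hba-a1 base first. The adult beta genes that this assembly carries on chromosome 7 are named Hbb-bs and Hbb-bt, 444 coding bases each, and also differ at 1 base, C417T, with the Hbb-bs base first. RefSeq places the symbols Hbb-b1 and Hbb-b2 on another sequence, and the submitters' processing notes name mm9. Which chromosome 7 gene each of the rows Hbb-b1 and Hbb-b2 counted was therefore not established. These stretches of 60 coding bases are shown because they end at the only base that tells each pair apart, in capitals.
Hba-a1, coding bases 322 to 381: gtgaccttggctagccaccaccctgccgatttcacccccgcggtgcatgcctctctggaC
Hba-a2, coding bases 322 to 381: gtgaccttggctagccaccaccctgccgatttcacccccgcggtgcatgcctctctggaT
Hbb-bs, coding bases 358 to 417: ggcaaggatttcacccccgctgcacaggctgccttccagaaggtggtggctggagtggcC
Hbb-bt, coding bases 358 to 417: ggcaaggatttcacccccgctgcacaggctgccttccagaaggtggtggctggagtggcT

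Windows of 50 bases slid along the spliced transcripts gave the extent of sharing between transcripts, not with the rest of the genome. Of the Hba-a2 windows, 86.9% were found unchanged in Hba-a1, and 67.5% of the Hba-a1 windows were found in Hba-a2. For the beta pair the shares were 65.8% of Hbb-bs and 58.3% of Hbb-bt. At 100 bases they were 74.5% for Hba-a2, 56.5% for Hba-a1, 62.6% for Hbb-bs and 54.8% for Hbb-bt. The Hba-a1 shares can understate its likeness to the genome around Hba-a2. In GENCODE, Hba-a1 begins at chr11:32283511, ahead of the 120 bases before its RefSeq start (chr11:32283552-32283671). Hba-a2 has no such extension and begins at chr11:32296489. All 297 compared promoter bases of the pair were identical. Hba-a1 windows in that stretch can match sequence beside Hba-a2 and still count as not shared. The embryonic genes Hba-x, Hbb-bh1 and Hbb-y shared 0 windows of either length with a transcript of another gene. No read length is stated, so these lengths are examples. Within the coding sequence only a read that covers the differing base can tell a pair apart. Ratios of reads between genes below are set side by side between libraries only, and do not give the genes' relative levels.

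**Figure D1:**
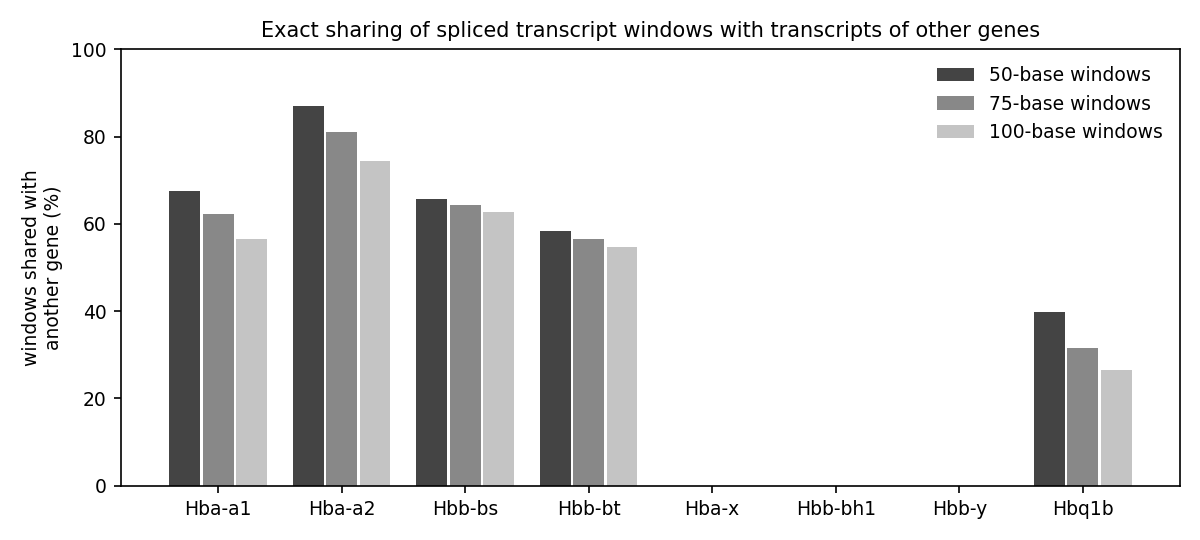
Share of windows of 50, 75 and 100 bases along each spliced transcript (percent, vertical axis) that also occur unchanged in a transcript of another gene, for the globin genes on the horizontal axis. Adult genes share from 54.8% to 86.9% of their windows in this way, the embryonic genes 0. Matches to sequence outside transcripts were not counted.

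The likeness of the alpha pair extends upstream. Where the RefSeq promoters of Hba-a1 and Hba-a2 (GRCm38.p6) were aligned, shifted by 3 bases, all 297 compared bases were identical. The compared bases include some that lie after the transcript start. Promoters of 4 of the 8 members are in that table; those of Hbb-bs and Hbb-bt were added. The 120 bases before each start of the RefSeq transcript are shown to set adult beside embryonic genes and because the adult alpha copies do not differ here. Capitals mark CACCC, bound by Klf1-type factors, CCAAT, and TATAA, on either strand.
Hba-a1, chr11:32283552-32283671, plus strand: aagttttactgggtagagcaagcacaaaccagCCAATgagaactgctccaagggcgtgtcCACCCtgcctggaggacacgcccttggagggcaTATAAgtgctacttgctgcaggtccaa
Hba-a2, chr11:32296372-32296491, plus strand: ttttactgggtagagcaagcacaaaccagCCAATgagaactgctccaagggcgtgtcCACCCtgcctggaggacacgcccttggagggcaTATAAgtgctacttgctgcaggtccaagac
Hba-x, chr11:32276480-32276599, plus strand: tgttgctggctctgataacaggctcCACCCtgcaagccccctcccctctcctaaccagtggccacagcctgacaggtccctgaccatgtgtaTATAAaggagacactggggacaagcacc
Hbb-bs, chr7:103827929-103828048, minus strand: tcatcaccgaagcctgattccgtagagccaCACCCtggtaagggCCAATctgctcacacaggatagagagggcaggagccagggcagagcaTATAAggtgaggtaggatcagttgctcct
Hbb-bt, chr7:103813924-103814043, minus strand: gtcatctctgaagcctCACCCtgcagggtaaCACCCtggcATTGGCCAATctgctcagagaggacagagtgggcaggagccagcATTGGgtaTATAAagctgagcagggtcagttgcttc
Hbb-y, chr7:103853208-103853327, minus strand: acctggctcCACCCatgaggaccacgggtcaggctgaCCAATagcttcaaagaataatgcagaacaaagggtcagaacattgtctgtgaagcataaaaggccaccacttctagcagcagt

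CACCC was found in all 6 of these windows, CCAAT in all but that of Hba-x, and TATAA in all but that of Hbb-y. Of the 32851 promoters in the table, 31.7% held CACCC, 21.3% CCAAT and 11.8% TATAA in the same 120 bases. A match is only a run of letters and does not show that a factor bound there.

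Whether adult globin RNA differs between Stag2KO and Stag2WT marrow was asked gene by gene in a fit over all 15708 genes that passed the filter on low counts. A gene is called where its adjusted p is below 0.05. None of the 4 adult globin genes was called in either direction, while 21.2% of all tested genes were, 10.7% higher and 10.5% lower in Stag2KO. That share of 4 genes is less than 1 gene. By edgeR's quasi-likelihood test, 0 of the 4 also had an unadjusted p under 0.05, and DESeq2 and limma-voom called 0. The 3 values of the groups overlapped for all 4 genes, so 0 of 4 were separated, whereas 43.5% of all tested genes had groups that did not overlap. In bulk marrow, fewer erythroid cells and less globin RNA per cell cannot be told apart.

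Hba-a1, an adult alpha chain gene, had 109.5, 89.0 and 65.6 CPM in Stag2KO, against 140.1, 144.0 and 74.8 CPM in Stag2WT. The lowest Stag2WT library lay inside the Stag2KO range and the other two lay above it. The fitted fold was 0.735 (95% interval 0.4155 to 1.30, adjusted p = 0.374 by edgeR).

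Hba-a2, the other adult alpha chain gene, had 25.5, 16.1 and 12.0 CPM in Stag2KO and 19.6, 15.3 and 9.51 CPM in Stag2WT. Here the highest value was a Stag2KO library and the lowest a Stag2WT library. Its fold was 1.204 (0.652 to 2.22, adjusted p = 0.632 by edgeR).

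Hbb-b1, an adult beta chain gene, had 284, 263 and 190 CPM in Stag2KO and 330, 277 and 155 CPM in Stag2WT. The Stag2KO values lay wholly within the Stag2WT range. Its fold was 0.967 (0.551 to 1.70, adjusted p = 0.926 by edgeR).

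Hbb-b2, the other adult beta chain gene, had 74.7, 49.96 and 34.6 CPM in Stag2KO and 93.1, 92.8 and 48.1 CPM in Stag2WT. As for Hba-a1, the Stag2WT library 3 lay among the Stag2KO values. Its fold was 0.680 (0.335 to 1.38, adjusted p = 0.365 by edgeR).

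**Figure D2:**
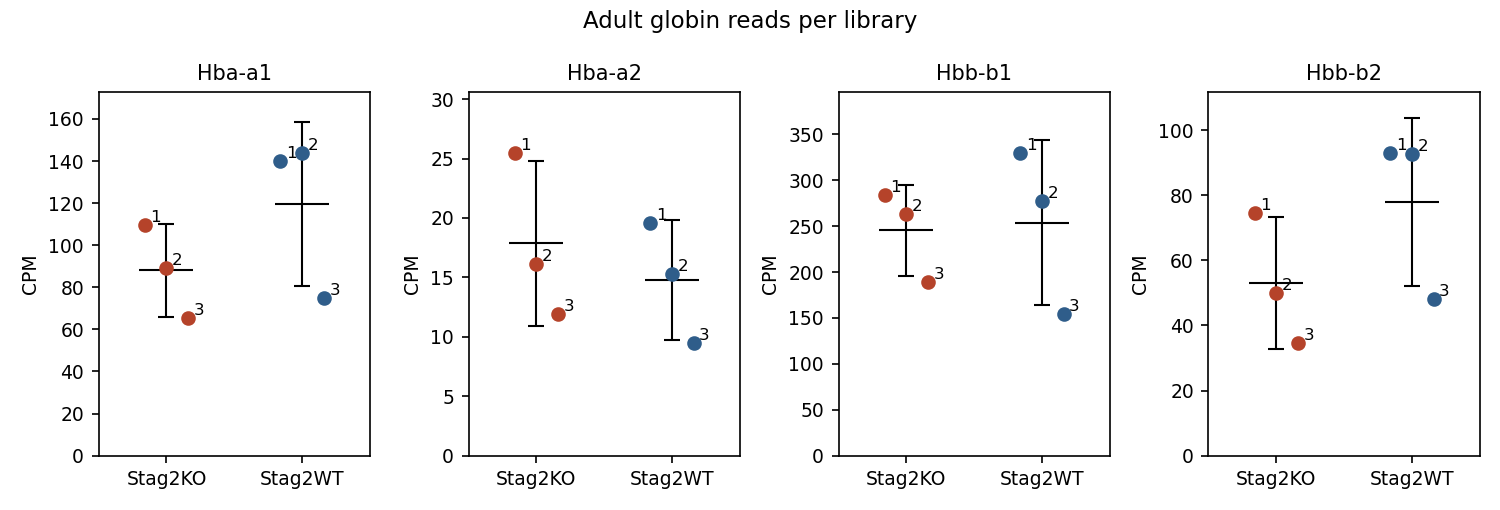
CPM of the adult globin genes (vertical axes, from 0) in the Stag2KO libraries (left, red) and the Stag2WT libraries (right, blue), numbered by replicate. Horizontal marks are means and bars are SD, n = 3 each. The groups overlap for every one of the 4 genes, and library 3 is the lowest of its group in each.

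In each group, library 3 was the lowest for all 4 adult genes. Summed over these genes, globin reads came to 494, 418 and 302 CPM in Stag2KO and 583, 529 and 287 CPM in Stag2WT. The log2 difference of the sums was -0.17, with a two-sided exact permutation p of 0.6. With 3 against 3 samples this test cannot go below 0.1, and over the 9 sums, shares and ratios compared in this way the smallest Benjamini-Hochberg adjusted p was 0.3. Adult alpha reads summed to 135.0, 105.1 and 77.6 CPM in Stag2KO and 159.7, 159.3 and 84.3 CPM in Stag2WT (log2 difference -0.32, exact permutation p = 0.5, adjusted 0.675). Adult beta reads summed to 359, 313 and 224 CPM in Stag2KO and 423, 370 and 203 CPM in Stag2WT (-0.11, exact permutation p = 0.7, adjusted 0.7). All 4 adult genes together took 0.0410% ± 0.00944 of gene reads in Stag2KO and 0.0457% ± 0.0147 in Stag2WT (SD, n = 3 each). Stag2WT library 3, which had the lowest sum, also had the smallest share of reads aligned to more than 1 place in its group. In Stag2KO that smallest share was in library 2. How many of those reads came from the adult globin genes was not measured.

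The proportions among the adult genes within a library do not depend on library scaling, and here the groups separated. Hba-a1 reads were 4.30, 5.52 and 5.49 times those of Hba-a2 in Stag2KO and 7.16, 9.41 and 7.87 times in Stag2WT. Every Stag2KO value lay below every Stag2WT value, with a log2 difference of -0.68 (exact permutation p = 0.1, adjusted 0.3). Hbb-b1 reads were 3.80, 5.27 and 5.48 times those of Hbb-b2 in Stag2KO and 3.55, 2.98 and 3.22 times in Stag2WT. That ratio was higher in each Stag2KO library than in any Stag2WT library (log2 difference 0.56, exact permutation p = 0.1, adjusted 0.3).

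Alpha reads were 0.376, 0.336 and 0.346 times the beta reads in Stag2KO and 0.377, 0.431 and 0.416 times in Stag2WT. These groups also did not overlap (log2 difference -0.21, exact permutation p = 0.1, adjusted 0.3), although the highest Stag2KO and the lowest Stag2WT library nearly touch. For the CPM of single genes, groups were separate for 43.5% of all tested genes. No such share was worked out for ratios. Reads that align to both copies of a pair are in neither count, so the proportions of the RNAs themselves were not measured. Shares of reads in no annotated gene moved with the same grouping, at 11.7% ± 0.982 in Stag2KO and 9.24% ± 0.727 in Stag2WT (SD, n = 3 each), and their part in the ratios was not tested.

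**Figure D3:**
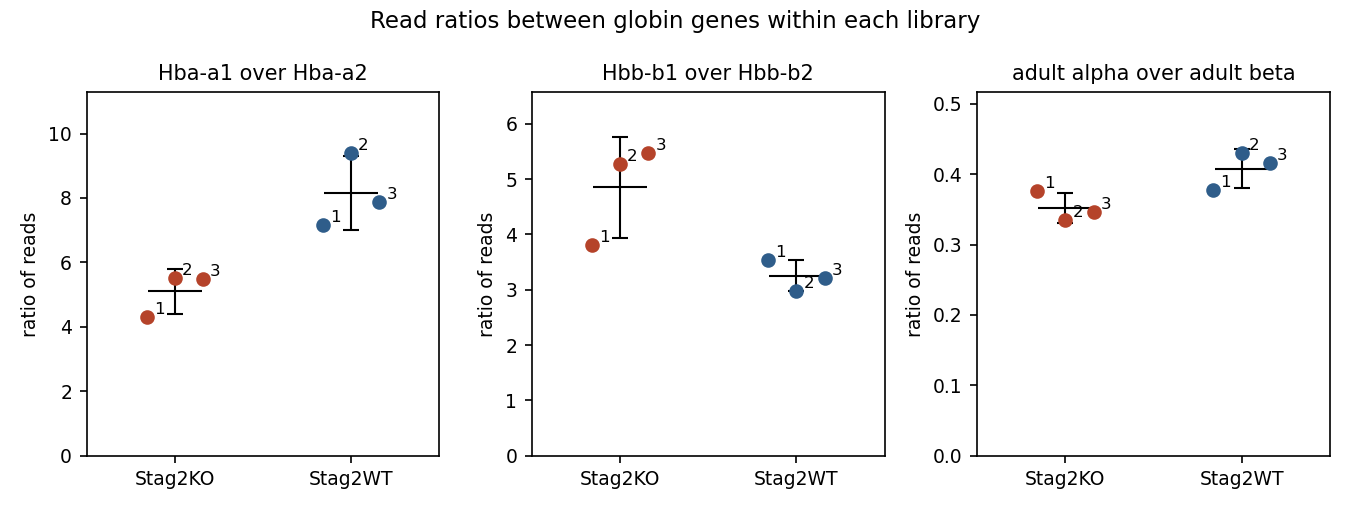
Ratios of reads between globin genes within each library (vertical axes, no unit, from 0), Stag2KO on the left in red and Stag2WT on the right in blue, with means and SD (n = 3 each). Stag2KO libraries are lowest for Hba-a1 over Hba-a2 and highest for Hbb-b1 over Hbb-b2.

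Across the 6 libraries the Pearson correlation of log2 CPM was positive for every pair of adult genes. Between the alpha and beta genes it was 0.98 for Hba-a1 and Hbb-b2, 0.87 for Hba-a2 and Hbb-b1, 0.84 for Hba-a1 and Hbb-b1 and 0.64 for Hba-a2 and Hbb-b2. Within a cluster it was 0.64 between Hba-a1 and Hba-a2 and 0.78 between Hbb-b1 and Hbb-b2. These are descriptions over 6 libraries, and within a library all genes share the same preparation and depth.

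Embryonic globin RNA was at the edge of detection. Hba-x, the zeta chain gene of the embryonic alpha cluster, had 5, 2 and 1 reads in Stag2KO and 4, 9 and 4 reads in Stag2WT. Hbb-y, the embryonic epsilon-type beta gene, had 1, 2 and 0 reads in Stag2KO and 2, 0 and 1 reads in Stag2WT. Hbb-bh1, the other embryonic beta-type gene, had 0 reads in all 6 libraries, which allows up to 0.0786 to 0.103 CPM per library at a floor of 3 counts. Hbb-y and Hba-x overlapped between the groups. None of these 3 genes passed the filter on low counts, so they have no call.

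Set against the adult genes, embryonic reads were 0.0416%, 0.0260% and 0.00867% of all globin reads in Stag2KO and 0.0286%, 0.0486% and 0.0509% in Stag2WT. The exact 95% binomial intervals, which cover counting error only, ran from 0.000220% to 0.0906% over the Stag2KO libraries and from 0.0105% to 0.119% over the Stag2WT libraries. They overlap throughout, but overlap of intervals for single libraries does not test a difference between the groups. The ratio of embryonic to adult reads had a log2 difference of -0.97 (exact permutation p = 0.2, adjusted 0.45). It was -0.33 without KO3 and -1.46 without KO1. With the filter reduced to 1 read, the log2 fold change of Hba-x was -1.01 (SE 0.752, adjusted p = 0.431 by edgeR) and that of Hbb-y 0.02 (SE 1.35).

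**Figure D4:**
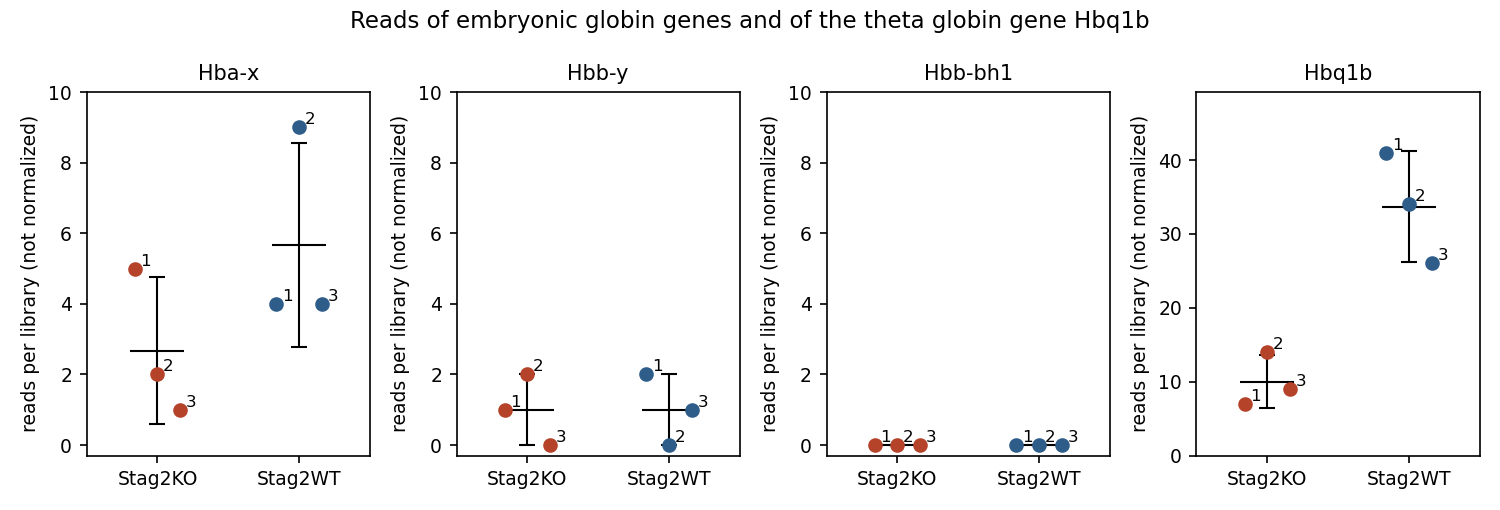
Reads per library, not normalized (vertical axes), of Hba-x, Hbb-y, Hbb-bh1 and the theta globin gene Hbq1b, Stag2KO on the left in red and Stag2WT on the right in blue, with means and SD (n = 3 each). No embryonic gene exceeds 9 reads, and Hbq1b has 7 to 14 reads in Stag2KO and 26 to 41 in Stag2WT.

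Within the alpha cluster the theta-type gene Hbq1b, which lies between the adult alpha genes and has no settled function, was lower. It is no member, but was on a list of other globin-fold genes. Hbq1b had 7, 14 and 9 reads in Stag2KO and 41, 34 and 26 in Stag2WT, or 0.240, 0.381 and 0.236 CPM in Stag2KO and 1.14, 0.971 and 0.761 CPM in Stag2WT. Each Stag2KO value lay below each Stag2WT value, with a log2 fold change of -1.73 (SE 0.318, adjusted p = 0.00850 by edgeR), and the call held without any single library (adjusted p 0.0153 to 0.0319). Of its windows of 50 bases, 39.8% are shared with its copy Hbq1a, which had 3 reads in all. Hba-ps4, an alpha pseudogene on chromosome 17 picked after its values were seen, had 12, 18 and 15 reads in Stag2KO and 8, 7 and 7 in Stag2WT (log2 fold change 1.03, adjusted p = 0.0530 by edgeR, not called). Cygb, the cytoglobin gene and the only other globin-fold gene tested, was not called (0.78, adjusted p = 0.420).

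Around the alpha cluster, 6 protein-coding genes on each side by GRCm38 gene order gave 11 tested neighbours, of which 2 were higher, 0 lower and 9 not called, with a median log2 fold change of 0.17. That count is near the 21.2% called over all tested genes. Mpg, a DNA repair glycosylase gene, rose (0.45, adjusted p = 0.0480 by edgeR), as did the ubiquitin ligase gene Fbxw11 (0.29, adjusted p = 0.0254). The Mpg call was lost without any 1 of the 6 libraries (adjusted p 0.0554 to 0.148), and that of Fbxw11 without KO1, KO2, WT1 or WT2 (up to 0.0823). Nsg2 had 0.548, 0.653 and 1.36 CPM in Stag2KO and 3.45, 1.28 and 1.90 CPM in Stag2WT, with overlapping groups, and was not called (-1.35, adjusted p = 0.0741). Nprl3, whose introns hold the alpha globin enhancers, had 30.8, 31.5 and 27.6 CPM in Stag2KO and 27.2, 28.2 and 24.3 CPM in Stag2WT and was not called (0.17, adjusted p = 0.216). The 12 neighbours of the beta cluster are olfactory receptor genes, and 0 of them had enough reads to be tested.

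Other erythroid genes give the setting of these values. The medians below stand beside 0.01 over all tested genes and -0.25 over the 4 adult globins, and the counts beside 10.5% lower and 10.7% higher over all tested genes. Of 24 tested late erythroid genes, 7 were lower, 2 higher and 15 not called, with a median log2 fold change of -0.64. Spnb1, encoding the beta spectrin of the red cell skeleton, fell by 0.74 (adjusted p = 0.00576 by edgeR), and Car2, a carbonic anhydrase gene, had 797, 800 and 621 CPM in Stag2KO and 1465, 1926 and 1101 CPM in Stag2WT. The ankyrin gene Ank1 fell by 0.60 (adjusted p = 0.0266), whereas Trim58, an E3 ligase gene of late erythroblasts, rose (0.89, adjusted p = 0.0197). The call of Car2 (-1.02, adjusted p = 0.0184) was lost without KO2 (0.0503), that of Ank1 without KO1, WT1 or WT2 (up to 0.103) and that of Trim58 without KO1, KO2, WT2 or WT3 (up to 0.0743). Where 9 of these genes were called with all libraries, 14 were called without WT3, 2 without KO1, 3 without KO2 or WT2, 4 without WT1 and 5 without KO3.

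Of 10 tested early erythroid genes, 4 were lower, 1 higher and 5 not called (21.2% of all tested genes were called), with a median of -0.44. Aqp1, the water channel gene, had 292, 265 and 197 CPM in Stag2KO and 496, 739 and 438 CPM in Stag2WT (-1.15, adjusted p = 0.0237 by edgeR). Epor, the erythropoietin receptor gene, fell by 0.68 (adjusted p = 0.0446), and the transferrin receptor 2 gene, listed as Trfr2, fell by 0.50 (adjusted p = 0.00948). Gata2, a progenitor factor gene that is switched off as erythroid cells mature, rose (0.39, adjusted p = 0.00588). The Epor call was lost without any 1 library but WT3 (up to 0.1045), and that of Aqp1 without KO2 (0.0724). The count of called genes was 2 to 6 when a library was left out.

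Among 21 tested transcription factor genes of the globin loci, 5 were lower, 2 higher and 14 not called, against 21.2% called over all tested genes, with a median of -0.10. The higher genes were Nfe2 (0.36, adjusted p = 0.00563 by edgeR) and its small Maf partner Mafg (0.42, adjusted p = 0.00429), whose products bind the globin enhancers together. Nfe2 had 215, 197 and 195 CPM in Stag2KO and 157.1, 156.8 and 157.6 CPM in Stag2WT. Ssbp3, a partner of the Ldb1 looping complex, fell by 0.42 (adjusted p = 0.0142), and Klf3, a repressor gene of the Klf family, fell by 0.27 (adjusted p = 0.0388). Klf1, the activator of adult beta globin, picked outside the naming rule, had 101, 105 and 83.3 CPM in Stag2KO and 159, 222 and 127 CPM in Stag2WT (-0.81, adjusted p = 0.0440). The call of Klf3 was lost without any 1 library but WT2 (up to 0.114) and that of Klf1 without KO1, KO2, KO3 or WT1 (up to 0.124), and 3 to 7 of the list were called when a library was left out.

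Heme synthesis genes had a median of -0.45, with 3 of 15 lower, 1 higher and 11 not called. That count is near the 21.2% of all tested genes that were called. Abcb6, a porphyrin transporter gene, fell by 0.77 (adjusted p = 0.0162 by edgeR). Tmem14c, needed for mitochondrial porphyrin import (-0.64, adjusted p = 0.0335), and Cpox, a heme pathway oxidase gene (-0.55, adjusted p = 0.03795), were also lower. Alas1, the first enzyme of heme synthesis outside the erythroid line, rose (0.76, adjusted p = 0.00305), at 577, 476 and 426 CPM in Stag2KO and 288, 298 and 286 CPM in Stag2WT. Its erythroid counterpart Alas2, picked after its values were seen, had 40.0, 42.0 and 26.5 CPM in Stag2KO and 42.0, 41.7 and 22.9 CPM in Stag2WT. The groups overlap for Alas2, which was not called (0.02, adjusted p = 0.962 by edgeR). The Tmem14c call was lost without KO1, KO2 or KO3 (up to 0.0968) and that of Cpox without any 1 library but WT3 (up to 0.0933). DESeq2 called 10 of the 15, and leaving out a library gave 2 to 9.

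Of 12 iron genes, 5 were lower, 0 higher and 7 not called (median -0.31), where 10.5% of all tested genes were lower. The lower genes included Slc11a2, a ferrous iron transporter gene (-0.57, adjusted p = 0.0127 by edgeR), and Aco1, encoding an iron sensor (-0.36, adjusted p = 0.0139). Ftl1, a ferritin subunit gene, fell by 0.48 (adjusted p = 0.02355), a call lost without KO2, KO3, WT1 or WT2 (up to 0.0771). Trfr2 is on this list too. Of 13 genes of globin quality control and redox defence, 4 were lower, 0 higher and 9 not called (median -0.28), beside the same 10.5% lower over all tested genes. Sod1, a superoxide dismutase gene, fell by 0.66 (adjusted p = 0.00355), and the chaperone genes Hsp90aa1 (-0.86, adjusted p = 0.00624) and Hspa8 (-1.04, adjusted p = 0.0387) were lower too. Ube2o, an enzyme gene that marks excess alpha chains for destruction, fell by 0.33 (adjusted p = 0.0257). The call of Hspa8 was lost without KO1, KO2, KO3 or WT3 (up to 0.111) and that of Ube2o without KO1, KO3, WT2 or WT3 (up to 0.0968).

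**Figure D5:**
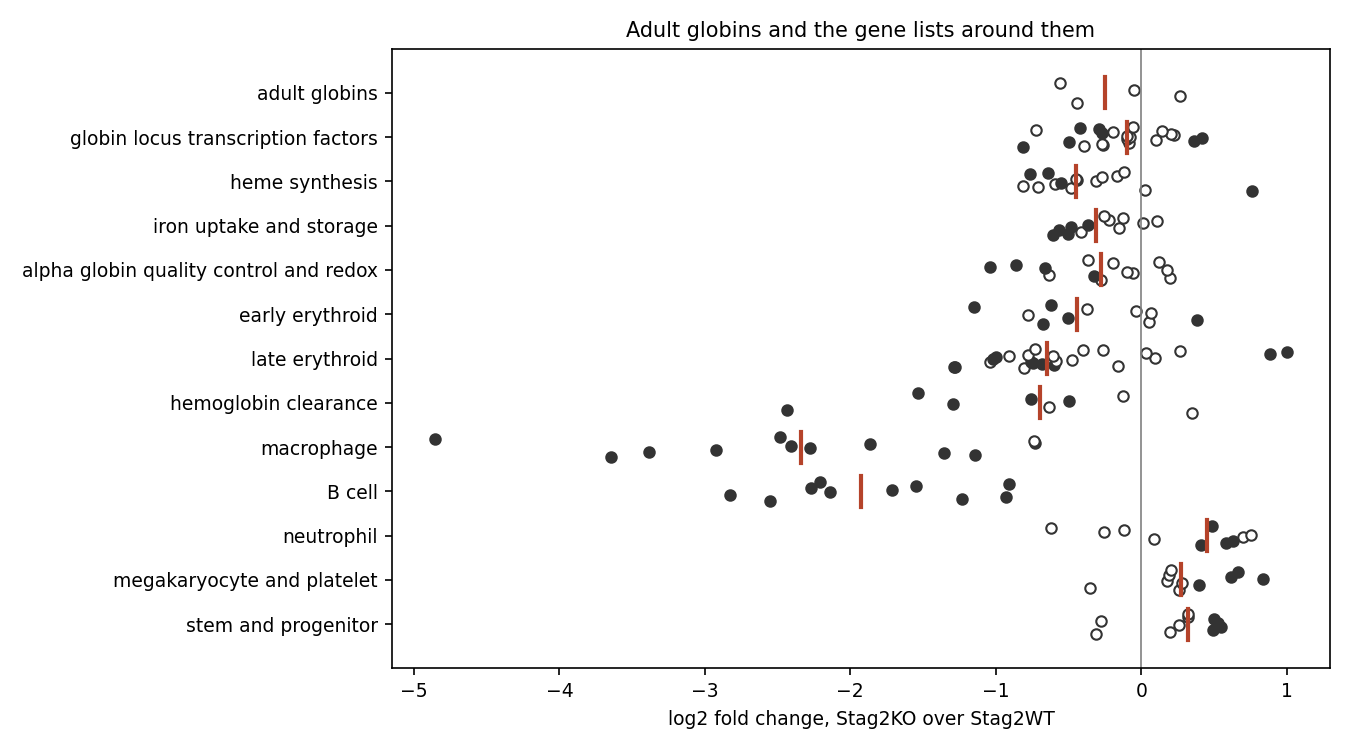
Fitted log2 fold change (horizontal axis, Stag2KO over Stag2WT) of each tested gene of the adult globins and of 12 lists. Filled points were called at an adjusted p under 0.05, open points were not, and red bars are medians. The 4 adult globins are all open, between -0.56 and 0.27.

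Genes that take up and break down hemoglobin were lower, 5 of 8, with 0 higher, 3 not called and a median of -0.70, beside 10.5% lower over all tested genes. Cd163, the macrophage receptor for hemoglobin bound to haptoglobin, fell by 2.44 (adjusted p = 7.25e-05 by edgeR), and Spic, the factor gene of iron-recycling macrophages, fell by 1.54 (adjusted p = 0.00231). Slc40a1, the iron exporter gene, fell by 0.76 (adjusted p = 0.01595), a call lost without WT2 (0.0698). Blvra, which acts on the heme product biliverdin, fell by 0.50 (adjusted p = 0.0173), a call lost without KO2 or WT2 (up to 0.0549). Markers of other cells moved in the same libraries. Macrophage genes were lower for 11 of 12, among them Siglec1 and Mrc1, with a summed level of 269 to 392 CPM in Stag2KO and 999.6 to 1110 CPM in Stag2WT. The macrophage gene Vsig4, picked after its values were seen, was at 0 in KO2. All 10 B cell genes, among them Pax5, Ebf1 and Vpreb3, were lower, summing to 91.8 to 105.0 CPM in Stag2KO and 222 to 339 CPM in Stag2WT. Higher genes numbered 4 of 10 for neutrophils (Elane, Mpo, Prtn3, Csf3r) and 4 of 10 for megakaryocytes and platelets (among them Itga2b, Gp5 and Itgb3). They also numbered 4 of 10 for stem and progenitor cells (Hlf, Meis1, Cd34, Mycn). Each of these 3 lists had 0 lower and 6 not called, where 10.7% of all tested genes were higher. Summed neutrophil levels were 16720 to 22640 CPM in Stag2KO and 14770 to 16130 CPM in Stag2WT. Within these sums, Mpo alone averaged 7611 CPM in Stag2KO and 5093 CPM in Stag2WT. The 6 neutrophil genes not called, picked outside the naming rule, went both ways. Mmp8 (-0.62), S100a8 (-0.26) and S100a9 (-0.12) were below 0, and Ltf (0.09), Camp (0.70) and Ngp (0.76) above it. Of the called genes named for these 3 lists, Csf3r, Gp5 and Itgb3 kept their calls without any single library. Each of the others lost its call without at least 1 library (Mpo without KO3, adjusted p = 0.0506 by edgeR). Leaving out a library gave 1 to 5 called neutrophil and 0 to 2 called stem and progenitor genes. The part of such shifts in the globin values was not tested.

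The genes whose log2 CPM followed the summed adult globins most closely over the 6 libraries were Tmem126b (Pearson r = 0.99), Ap4b1 (0.96), Ttc4 (0.96), Bmi1 (0.95), Snx6 (0.95), Dnajc4 (0.95), Pmm2 (0.94) and Ring1 (0.94), out of 9909 genes whose mean reached 5 CPM. None of the 8 was called, but they were chosen to follow a sum whose groups overlap, so this adds nothing on the groups. Their levels moved little: Tmem126b ran from 19.1 to 21.4 CPM in Stag2KO and from 19.0 to 21.6 CPM in Stag2WT. Among erythroid genes looked up afterwards, Alas2 ranked 17 (r = 0.93), Gata1 218 (0.76) and Slc4a1 605 (0.63). The likeness is a description over 6 libraries, and all genes of a library share its depth and preparation.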

How the data were processed

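Total RNA was sequenced from lineage-depleted mouse marrow. The authors deposited raw read counts by gene symbol with a column for each library. STAR 2.4, HTSeq 0.6.1, DESeq2 and the build mm9 appear in the submitters' processing notes. The annotation, strand setting, read length and library kit were not found in the labels. Gene reads exclude the rows that name no gene, which held 8.81% to 12.8% (no feature), 2.02% to 2.20% (ambiguous) and 23.4% to 28.6% (aligned to several places) of all reads in the table.

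Genotype came from the labels; replicates were numbered in accession order. Counts were fitted with edgeR 4.0.16 (R 4.3.3; TMM, filterByExpr, robust quasi-likelihood, genotype only), with Benjamini-Hochberg adjustment over 15708 genes and calls at 0.05. Intervals of folds use the fit's standard error and degrees of freedom. Sums and ratios were compared by two-sided exact permutation. The fit was tested on simulated data. Sequences came from GENCODE M21 and RefSeq (GRCm38.p6); genes matching older symbols were found through RefSeq synonyms.

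Named were the members, up to 4 genes of smallest p per list, Stag2, called neighbours and the 8 closest profiles; others are said to be picked. Members and lists were chosen with earlier results of these data known. Alternatives were median-ratio scaling, library sizes without the members, unscaled reads, 2 other filters, DESeq2 1.42.0, limma-voom (limma 3.58.1), no robust step, summed copies and each library left out. One listed member, the ratio and profile search that need it, and a few genes of the lists are not reported here by name. Binomial intervals and floors cover counting error only.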

Additional observations from a re-analysis of the deposited data

How the results depend on the processing

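None of the 4 adult globin genes was called under any of the 13 alternatives run for single genes. Hba-a1 and Hbb-b2 kept a fold below 1 in all of them. Hba-a2 turned to -0.074 (log2) without Stag2KO replicate 1, and Hbb-b1 to 0.0018 with limma-voom and to 0.02, 0.11 and 0.19 without Stag2WT replicate 2, Stag2KO replicate 3 and Stag2WT replicate 1; the cause was not tested. Leaving out a library gave log2 values from -0.69 to -0.27 for Hba-a1, -0.074 to 0.52 for Hba-a2, -0.31 to 0.19 for Hbb-b1 and -0.88 to -0.32 for Hbb-b2. With copies summed before the fit, adult alpha stood at -0.35 (adjusted p = 0.498 by edgeR) and adult beta at -0.15 (adjusted p = 0.769). The log2 difference of the adult sum was -0.49 to 0.03 with a library left out, above 0 without KO3 or WT1. The ratios then kept their direction, from -0.76 to -0.56 for Hba-a1 over Hba-a2, 0.47 to 0.73 for Hbb-b1 over Hbb-b2, -0.26 to -0.17 for alpha over beta and -1.46 to -0.33 for embryonic over adult, which was -0.79 with 0.5 reads added.

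The count of called genes over the whole table was 3333, and 1967 to 2548 with a library left out. Called genes per list then ran from 3 to 7 for globin locus factors, 2 to 9 for heme synthesis, 3 to 5 for iron, 2 to 4 for globin quality control, 2 to 6 for early and 2 to 14 for late erythroid genes, 3 to 5 for hemoglobin clearance, 9 to 11 for macrophages, 1 to 5 for neutrophils, 3 to 4 for megakaryocytes, 0 to 2 for stem cells and 0 to 2 for alpha cluster neighbours. DESeq2 called 10 heme, 7 quality control and 17 late erythroid genes. With 1 read as the filter, 2 heme, 2 early erythroid and 5 late erythroid genes and 1 alpha cluster neighbour were called; with 5 CPM in 3 libraries, 0 other globin-fold genes were, since Hbq1b is below it. No paired analysis was possible because the labels give the samples no shared replicate numbers. Depth limits the embryonic genes, which had at most 9 reads in a library.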
